A study of Schmidtea mediterranea with 35 samples.

Results

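Of the 25462 transcripts quantified in sorted stem cells of the planarian Schmidtea mediterranea, 33 were lower after 13 days of p53 RNAi than in the control of the same day, while their level after zfp1 RNAi was close to the control. They were chosen from group medians on the log2(RPKM + 1) scale, where RPKM is a read count scaled to transcript length and an adjusted library size. A transcript had to reach a median of at least 3 RPKM in 1 of the 9 groups of RNAi and day, to differ from the control at day 13 by -1 or lower after p53 RNAi, and to lie between -0.4 and 0.4 after zfp1 RNAi. 11932 transcripts reached that level, and 227 of them met the p53 criterion at day 13. After zfp1 RNAi, 107 of these 227 were also at -1 or lower, 79 lay between -1 and -0.4, 33 were within the window and 8 were above it.

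The study sequenced polyA RNA of X1 cells, the Hoechst-stained sorting gate that holds cycling neoblasts, from the CIW4 clonal line fed bacteria that carried double-stranded RNA. Groups were p53 RNAi at days 6, 9 and 13 (4 libraries each), zfp1 RNAi at the same days (4 each) and the non-targeting unc22 RNAi control (4, 4 and 3). All groups shared the clonal line, the bacterial feeding and the sort, and the labels name no promoter, transgene or other allele. The labels do not give the origin of the replicates (1 culture of animals or several), and p-values therefore measure only how far these libraries spread, which may be technical.

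Neoblasts are the only dividing somatic cells of planarians, and they produce every differentiated cell type of the animal. In Schmidtea mediterranea, p53 is related to the tumour suppressor of vertebrates and is known from neoblasts and early postmitotic descendants, where its loss disturbs the balance of self-renewal and differentiation. zfp-1 encodes a zinc finger protein of the neoblasts fated to the epidermis, and in planarians both genes have been linked to the epidermal lineage.

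The transcripts are known here by identifier alone, with neither a gene name nor a sequence, so no role, pathway or cell type is given for any of them, and neither the 2 RNAi targets nor marker genes of X1 cells could be looked up. In this bulk RNA, fewer cells that express a transcript and less of it per cell cannot be told apart.

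Libraries held 4391559 to 26115474 reads. 3 of them stood apart, with 4546 to 5021 transcripts at 0 against at most 3588 in any other library, namely replicate 1 of the zfp1 group at day 6 and the replicates numbered 5 of the zfp1 and control groups at day 13. The library size that the RPKM divides by, recovered from the values, was 0.617 to 1.207 of a library's total reads. It was 0.617 in unc22 day 13 replicate 5, 0.674 in zfp1 RNAi day 13 replicate 5 and 0.812 in zfp1 RNAi day 6 replicate 1. A ratio below 1 raises every RPKM value of a library. In unc22 day 13 replicate 5, 29 of the 33 transcripts had their highest value among the day 13 controls. In zfp1 RNAi day 6 replicate 1 and in zfp1 RNAi day 13 replicate 5, 22 of the 33 were at the highest value of their group. These counts were not made over all transcripts. In all 3 libraries, 6 of the 33 were more than 0.5 (log2) above the median of their group's other libraries, beside 6.03% of tested transcripts. 0 of the 33 were that far below it in all 3, beside 13.4%. The selection depended on single libraries of day 13. Without unc22 day 13 replicate 5 the same rule found 31 transcripts, of which 23 were among the 33, and without all 3 libraries it found 30, of which 22 were shared. Leaving out unc22 day 13 replicate 4 gave 55 transcripts with 12 shared, and leaving out unc22 day 13 replicate 1 gave 49 with 14 shared. 4 transcripts were selected whichever of the 11 day 13 libraries was left out, and they were SMED30015783, SMED30008861, SMED30006247 and SMED30009803, of which the last 3 are named because of this count.

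**Figure D1:**
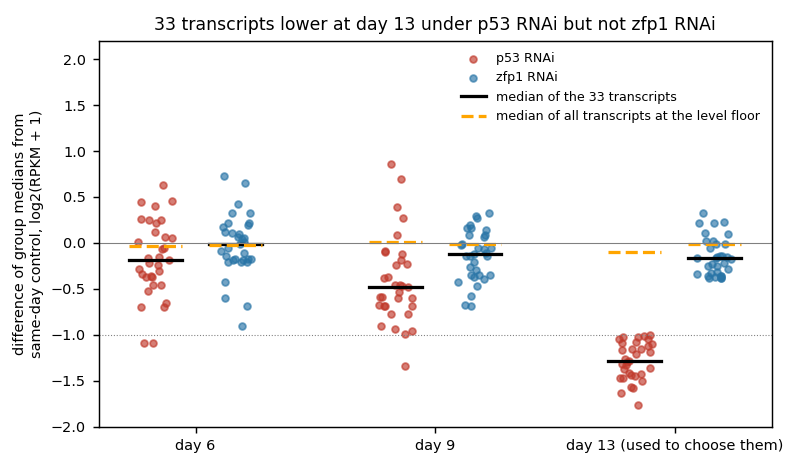
Difference of each transcript's group median from the median of the same-day unc22 control, in log2(RPKM + 1), after p53 RNAi (left of each pair) and zfp1 RNAi (right) at days 6, 9 and 13. Each point is 1 of the 33 transcripts, black bars are their medians and dashed orange bars the medians of 11932 transcripts at the level floor. The p53 median was -0.19 at day 6, -0.48 at day 9 and -1.28 at day 13, where the dotted line at -1 is the selection threshold.

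The values that chose the 33 transcripts are described here without a test. At day 13 the difference from the control after p53 RNAi ran from -1.76 to -1.0 with a median of -1.28, and that after zfp1 RNAi from -0.38 to 0.33 with a median of -0.16. Over all 11932 transcripts at the level floor the medians were -0.10 and -0.01. Without the 3 libraries that stood apart the medians of the 33 were -1.19 for p53 and -0.16 for zfp1, with ranges of -1.57 to -0.74 and -0.48 to 0.40. All p53 RNAi libraries of day 13 lay below all control libraries for 30 of the 33, where 17.5% of the tested transcripts did so, and below all zfp1 RNAi libraries for 24, where 10.4% did. Both counts follow from the choice of transcripts. The size that the RPKM divides by was 1.042 to 1.142 of total reads in the p53 RNAi libraries of day 13. In the controls of that day it was 0.617 to 0.939, and in the zfp1 RNAi libraries 0.674 to 0.997. With the RPKM values rescaled by median ratios, the same rule found 29 transcripts, of which 28 were among the 33. How far the size that the RPKM divides by enters the differences was not tested.

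SMED30017359, a transcript of 660 bases by the length recovered from the RPKM values, had the largest difference. At day 13 it stood at 12.8, 21.2, 11.7 and 23.4 RPKM after p53 RNAi, at 64.2, 58.3, 48.5 and 37.4 RPKM after zfp1 RNAi and at 59.8, 42.0 and 90.8 RPKM in the control. The p53 libraries were below every other library of that day. SMED30005188, the next largest, stood at 34.8, 31.5, 33.5 and 30.4 RPKM after p53 RNAi, at 75, 74.4, 87.5 and 104 RPKM after zfp1 RNAi and at 94.3, 103 and 181 RPKM in the control, again without overlap. SMED30013690 stood at 2.38, 3.19, 2.26 and 3.12 RPKM after p53 RNAi, at 12.4, 9.39, 11.7 and 16.4 RPKM after zfp1 RNAi and at 10.2, 7.10 and 12.1 RPKM in the control. The zfp1 and control libraries overlapped in all 3 transcripts. SMED30002513 averaged 1.37 ± 0.677 RPKM after p53 RNAi, 5.26 ± 0.552 RPKM after zfp1 RNAi (SD, n = 4 each) and 6.86 ± 1.30 RPKM in the control (SD, n = 3). SMED30003859 and SMED30015185 completed the 6 lowest, and in both the library zfp1 RNAi day 13 replicate 5 was the highest of its group. SMED30003859 was at 69.2 RPKM there and between 11.1 and 17.3 RPKM in the other 3, and SMED30015185 was at 33.4 RPKM there and between 8.35 and 22.1 RPKM in the other 3.

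The most abundant of the 33 in the day 9 controls were SMED30027697, SMED30008182, SMED30005188 and SMED30017359. SMED30027697 averaged 58.2 ± 12.3 RPKM at day 13 with p53 RNAi and 176 ± 37.3 RPKM in controls, and SMED30008182 averaged 82.5 ± 20.5 RPKM with p53 RNAi and 138 ± 36.6 RPKM in controls (SD, n = 4 and 3). At the other end, SMED30004614 had the lowest peak level, a median of 3.04 RPKM in the day 13 control, and stood at 1.43, 0.784, 0.169 and 0.975 RPKM after p53 RNAi. The value of 0.169 RPKM is 1 read. Of the 1155 values of the 33 transcripts, 78 rested on fewer than 10 reads and none was 0, so the weakest members carry a wide counting error.

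At the p53 threshold, SMED30016143 was just inside with a difference of -1.0014 and SMED30014561 just outside with -0.9993. SMED30005831 was nearest to the lower edge of the zfp1 window, at -0.378, and SMED30005671 lay outside it at -0.415. SMED30018167 was nearest to the upper edge, at 0.333, and SMED30007442 lay outside it at 0.405. SMED30030440, with a highest median of 2.83 RPKM, missed the level floor. Transcripts with nearly equal values thus lay on both sides of the p53 threshold, while the gap was wider at the upper zfp1 edge.

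Levels at day 13 differed from those at day 6 on both sides of the comparison. After p53 RNAi the day 13 median was below the day 6 median in 33 of 33 transcripts, with a median difference of -0.65 (log2). In 29 of the 33 the p53 group of day 13 had the lowest of all 9 medians. The count of 29 was not made over all transcripts and follows in part from the choice of transcripts. In the control the day 13 median was above that of day 6 in 27 of 33, by a median of 0.43, and after zfp1 RNAi in 23 of 33, by 0.36. Over all 11932 transcripts at the level floor these 3 medians were -0.02, 0.03 and 0.05. For 22 of the 33 the decline after p53 RNAi was larger than any increase in the control, and for 11 the increase in the control was larger. The 22 include 6 transcripts whose control median was lower at day 13 than at day 6. All p53 RNAi libraries of day 13 lay below all those of day 6 in 15 of the 33 (9.48% of tested transcripts) and below all those of day 9 in 5 (6.5%). These moves draw on the day 13 values that chose the transcripts and were not tested.

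Among the transcripts where the control increase was larger, SMED30002513 differed between days 13 and 6 by -0.31 after p53 RNAi, by 1.0 after zfp1 RNAi and by 1.02 in the control (log2 of medians). SMED30018167 differed by -0.40, 0.73 and 0.72 in the same order, and SMED30013690 by -0.36, 0.80 and 0.57. These transcripts were higher at day 13 than at day 6 in both zfp1 RNAi and control cells and slightly lower after p53 RNAi. In 6 other transcripts the control median was lower at day 13 than at day 6, with differences of -0.33 to -0.04. After p53 RNAi these 6 differed by -1.79 to -0.73. SMED30035673, chosen after its values were seen, had the largest decline after p53 RNAi of all 33, with a difference of -1.79 after p53 RNAi against -0.04 in the control.

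**Figure D2:**
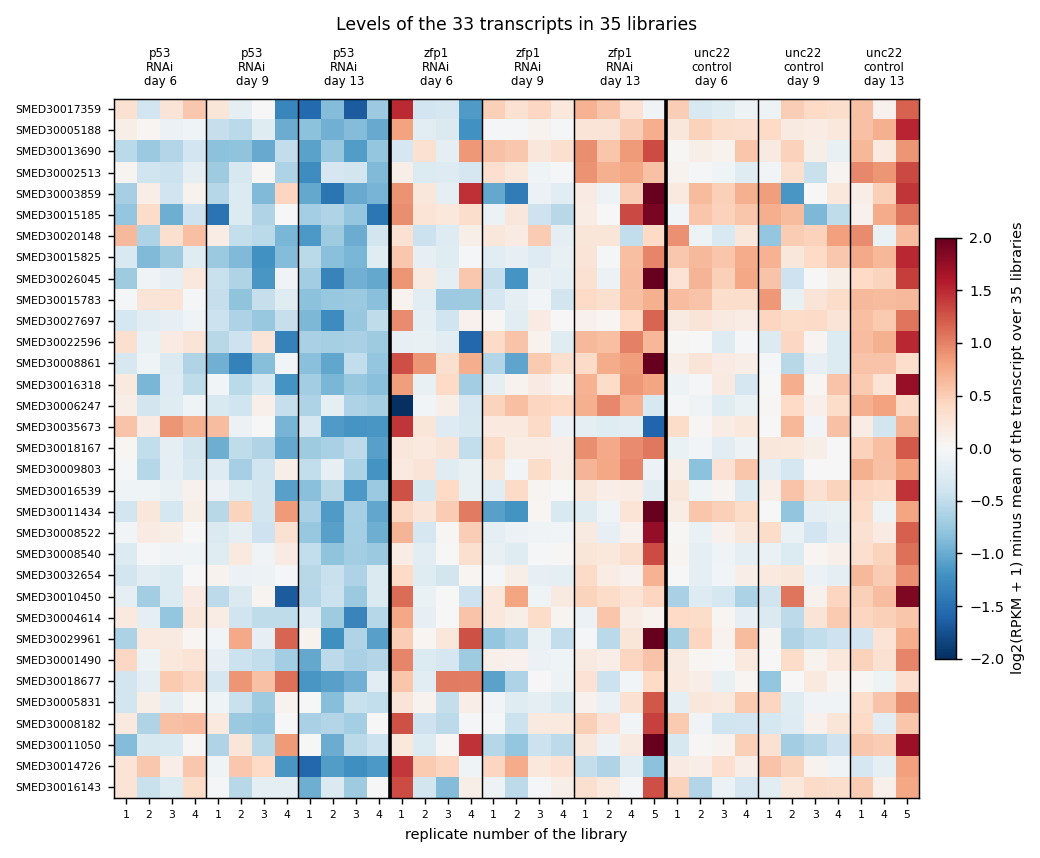
Level of each of the 33 transcripts (rows, by increasing day 13 difference) in each of 35 libraries (columns, numbered by replicate, p53 RNAi left, zfp1 RNAi middle, unc22 control right), as log2(RPKM + 1) minus the transcript's mean over all libraries. The p53 RNAi day 13 group had the lowest of the 9 medians in 29 of the 33 rows, and the control column numbered 5 at day 13 was the highest of its group in 29. Neither count was made over all transcripts, and the first follows in part from the choice of transcripts.

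Days 6 and 9 took part in the choice only through the level floor, so the comparisons of those days were tested, with limma on log2(RPKM + 1) and Benjamini-Hochberg adjustment over 19206 transcripts. All 33 passed the filter on low values. At day 9, 5 of the 33 were lower after p53 RNAi than in the control at an adjusted p under 0.05 and 0 were higher, against a background of 2.06% of tested transcripts called lower and 1.85% called higher. The log2 fold change was negative in 28 of 33 with a median of -0.49, beside 50.7% negative and a median of 0 over all tested transcripts. At an unadjusted p under 0.05 there were 11 lower and 1 higher, beside 6.96% of all tested transcripts lower. On recovered reads, limma-voom called 6 lower and 0 higher, beside 1.98% lower. In a fit that left out the 3 apart libraries, all of other days, 11 of the 33 were called lower and the background was 5.03%, since all groups share 1 estimate of the spread.

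SMED30015825 had the largest fall at day 9. It stood at 1.33, 1.13, 0.69 and 1.15 RPKM after p53 RNAi, at 2.37, 2.47, 2.26 and 2.52 RPKM after zfp1 RNAi and at 5.31, 3.57, 4.17 and 4.70 RPKM in the control. The 3 groups did not overlap, and the zfp1 libraries lay in between. The log2 fold change for p53 was -1.39 ± 0.21 (SE; adjusted p = 3.4e-05, limma). For zfp1 it was -0.67 ± 0.21 and was not called (adjusted p = 8.6e-02, limma).

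SMED30013690 stood at 3.02, 3.06, 2.53 and 4.04 RPKM after p53 RNAi, at 9.61, 9.28, 7.23 and 7.87 RPKM after zfp1 RNAi and at 7.03, 8.71, 6.67 and 5.38 RPKM in the control at day 9. Only the p53 libraries stood apart from the others. Its log2 fold change for p53 was -0.93 ± 0.21 (SE; adjusted p = 4.7e-03, limma), and for zfp1 it was 0.27 ± 0.21 (SE; adjusted p = 1.0e+00, limma). SMED30018167 showed the same arrangement, with 2.99, 4.53, 4.19 and 2.87 RPKM after p53 RNAi, 9.19, 7.70, 7.71 and 7.64 RPKM after zfp1 RNAi and 8.20, 8.12, 7.48 and 6.79 RPKM in the control. It fell by 0.91 ± 0.17 on the log2 scale after p53 RNAi (SE; adjusted p = 8.2e-04, limma).

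The abundant SMED30027697 stood at 77.3, 67.8, 61.3 and 75.7 RPKM after p53 RNAi, at 106, 89.4, 117 and 105 RPKM after zfp1 RNAi and at 140, 134, 136 and 125 RPKM in the control at day 9, with no overlap between any of the groups. It fell by 0.92 ± 0.21 (SE; adjusted p = 8.2e-03, limma) after p53 RNAi, and the zfp1 value was -0.36 ± 0.21 (SE; adjusted p = 8.6e-01, limma). SMED30015783 stood at 1.14, 0.67, 1.12 and 1.47 RPKM after p53 RNAi, at 1.31, 1.55, 1.83 and 1.28 RPKM after zfp1 RNAi and at 4.34, 1.64, 2.50 and 2.77 RPKM in the control. Its p53 and zfp1 libraries overlapped each other, and the p53 change of -0.83 ± 0.18 on the log2 scale (SE; adjusted p = 3.5e-03, limma) was lost when just the compared groups were fitted (adjusted p = 1.1e-01, limma).

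**Figure D3:**
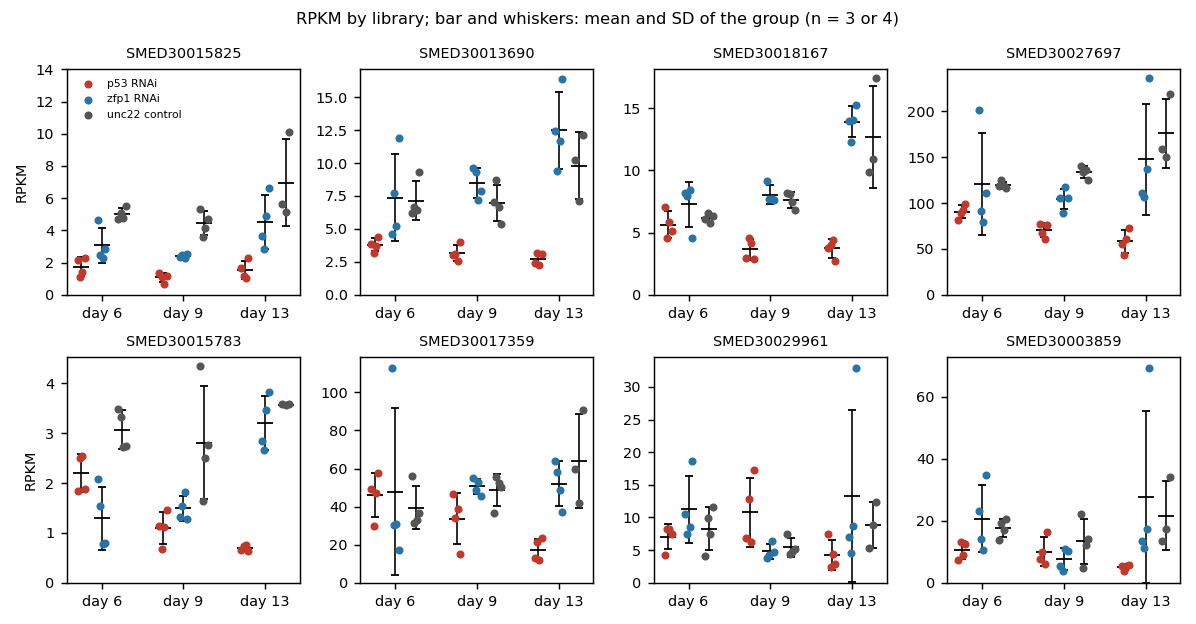
RPKM of 8 of the 33 transcripts in each library, by day, with p53 RNAi left, zfp1 RNAi middle and unc22 control right in each cluster. Points are libraries, and bars with whiskers are the mean and SD of a group (n = 4, or 3 for the day 13 control). SMED30015825, SMED30013690, SMED30018167 and SMED30027697 are below the control in every p53 RNAi library of day 9, and SMED30029961 is not.

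At day 9, 5 of the 33 were higher in p53 RNAi cells by log2 fold change, and none of them was called. The highest were those of SMED30029961 and SMED30018677. SMED30029961 stood at 6.85, 12.8, 6.24 and 17.3 RPKM after p53 RNAi and at 7.50, 4.34, 4.78 and 5.12 RPKM in the day 9 control (0.79 ± 0.40, SE; adjusted p = 4.0e-01, limma). SMED30018677 stood at 4.82, 12.5, 9.94 and 14.7 RPKM after p53 RNAi and at 3.26, 6.36, 7.40 and 6.61 RPKM in the control (0.69 ± 0.31, SE; adjusted p = 3.1e-01, limma). The groups overlapped in both transcripts. At day 13 SMED30018677 stood at 2.25, 2.44, 2.75 and 5.28 RPKM after p53 RNAi and at 6.44, 5.81 and 8.28 RPKM in the control, so its low level under p53 RNAi was seen at the last day alone.

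At day 6 the p53 comparison called 1 of the 33 lower and 0 higher, beside 0.692% of tested transcripts lower and 0.411% higher. The log2 fold change was negative in 22 of 33, with a median of -0.17, against 50.2% negative and a median of 0 over all tested transcripts. At an unadjusted p under 0.05, 4 were lower and 0 higher, beside 2.64% of tested transcripts lower, and limma-voom called 1 lower and 0 higher, beside 0.62% lower. The called transcript was SMED30015825, at 2.17, 1.11, 1.39 and 2.29 RPKM after p53 RNAi, at 4.66, 2.48, 2.29 and 2.84 RPKM after zfp1 RNAi and at 4.68, 5.10, 4.74 and 5.51 RPKM in the control. Every p53 library and every zfp1 library was below every control library. For p53, limma gave -1.16 ± 0.21 on the log2 scale (SE, adjusted p = 1.1e-03). The zfp1 change was -0.59 ± 0.21 and was not called (SE, adjusted p = 2.6e-01, limma). SMED30013690 stood at 3.88, 3.21, 3.73 and 4.40 RPKM after p53 RNAi and at 6.19, 6.67, 6.42 and 9.33 RPKM in the control at day 6. The groups did not overlap, but the log2 difference of -0.75 ± 0.21 missed the threshold (SE; adjusted p = 7.5e-02, limma).

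Counted by library overlap, 8 of the 33 had all p53 RNAi libraries below all controls at day 6 and 9 had them so at day 9, where 3.97% and 5.63% of tested transcripts did. None had all p53 libraries above all controls on either day, where 4.48% and 4.85% did. All p53 libraries were below all zfp1 libraries in 4 of the 33 at day 6 (1.42% of tested transcripts) and in 7 at day 9 (4.16%). All zfp1 libraries were below all controls in 2 at day 6 (2.53%) and 3 at day 9 (4.02%), and above all controls in 1 at day 6 (1.69%) and 1 at day 9 (6.43%).

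The change of the p53 effect between days 6 and 9 was tested as an interaction. It was negative in 23 of 33 with a median of -0.23 (log2), beside 52.4% negative and a median of -0.02 over all tested transcripts. 0 of the 33 were called, and 0 of all 19206. At an unadjusted p under 0.05, 4 of the 33 were more negative at day 9 and 0 more positive, beside 1.97% of tested transcripts more negative, and limma-voom called 0 of the 33. SMED30018167 was among these 4, with an interaction of -0.79 ± 0.24 (SE; adjusted p = 9.8e-01, limma). It stood at 7.08, 4.58, 5.86 and 5.10 RPKM after p53 RNAi at day 6 and at 6.13, 6.56, 5.75 and 6.34 RPKM in the control of that day, so that the groups overlapped, unlike at day 9. In the controls, day 9 against day 6 gave 0 calls among the 33 in limma and in limma-voom. Of all tested transcripts, limma called 0.0104% lower and 0 higher. At an unadjusted p under 0.05, 0 of the 33 were lower and 1 higher, beside 2.12% of tested transcripts lower. The share of tested transcripts higher at that p was not counted.

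After zfp1 RNAi, 1 of the 33 was called at day 6 and 0 at day 9, beside backgrounds of 0.88% lower and 0.422% higher at day 6 and of 1.07% and 2.16% at day 9. The median log2 fold changes were 0.08 and -0.13, and over all tested transcripts -0.05 and -0.01. The day 6 median was -0.07 without zfp1 RNAi day 6 replicate 1. At an unadjusted p under 0.05, 3 were lower and 1 higher at day 6, where 5.12% of tested transcripts were lower, and 2 lower and 0 higher at day 9, where 2.92% were lower. At day 9 limma-voom called 1 of the 33 lower, beside 1.19% of tested transcripts. The transcript called at day 6 was SMED30015783, at 2.08, 1.54, 0.768 and 0.798 RPKM after zfp1 RNAi and at 3.48, 3.33, 2.73 and 2.75 RPKM in the control (-0.86 ± 0.18 on the log2 scale, SE; adjusted p = 5.1e-03, limma). All zfp1 libraries were below all controls. When just the compared groups were fitted the call was lost (adjusted p = 4.1e-01, limma), and without zfp1 RNAi day 6 replicate 1 and the other 2 libraries that stood apart the log2 fold change was -1.02 (adjusted p = 4.3e-04, limma). For p53 RNAi at day 6 it was -0.35 ± 0.18 and not called (SE; adjusted p = 8.5e-01, limma). SMED30015783 was thus called lower after zfp1 RNAi at day 6 although the selection at day 13 asked for a zfp1 level near the control.

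The direct comparison of p53 with zfp1 RNAi uses no control library for its differences. At day 9 it called 2 of the 33 lower after p53 RNAi and 0 higher, beside 0.104% and 0.0156% of all tested transcripts. These were SMED30013690, with a log2 difference of -1.19 ± 0.21 (SE; adjusted p = 4.7e-03, limma), and SMED30018167, with -0.98 ± 0.17 (SE; adjusted p = 5.7e-03, limma). In both, every p53 library was below every zfp1 library, as the values above show. The call of SMED30018167 ended without zfp1 RNAi day 9 replicate 1 (-0.92; adjusted p = 5.1e-02, limma) and in a fit on these groups alone (adjusted p = 1.0e-01, limma). The median difference of the 33 was -0.47 with 26 negative, against -0.02 and 53.6% negative over all tested transcripts. At an unadjusted p under 0.05, 9 were lower and 2 higher, beside 4.32% of tested transcripts lower, and limma-voom called 2 lower and 0 higher, beside 0.109% lower. SMED30015825 and SMED30027697 differed between the knockdowns by -0.72 ± 0.21 and -0.56 ± 0.21 (SE), neither of them called (adjusted p = 2.6e-01 and 5.3e-01, limma). The difference between the knockdowns was thus called for 2 of the 5 transcripts called lower at day 9.

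At day 6 the same comparison called 0 of the 33, with 4 lower and 2 higher at an unadjusted p under 0.05, where 3.01% of tested transcripts were lower, and 0 calls in limma-voom. Backgrounds were 0.0469% lower and 0.0573% higher. The median difference was -0.29 with all libraries and -0.05 without zfp1 RNAi day 6 replicate 1, in which 22 of the 33 were at the highest value of their group. What else sets that library apart was not tested against the difference.

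**Figure D4:**
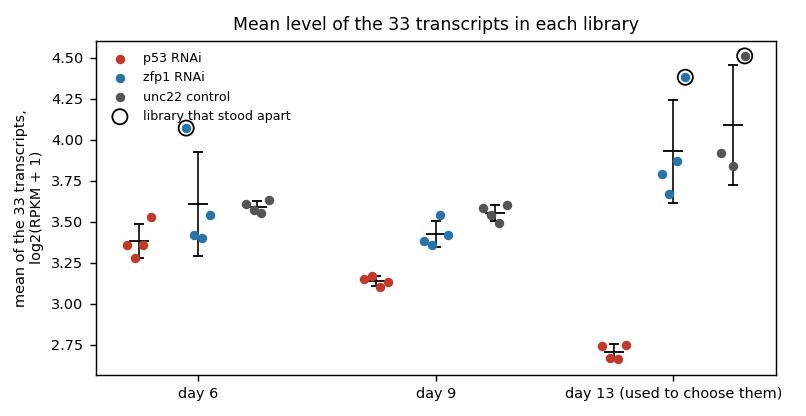
Mean of log2(RPKM + 1) over the 33 transcripts in each library (points), with the mean and SD of each group of 4 libraries (3 in the day 13 control), for p53 RNAi (left), zfp1 RNAi (middle) and unc22 control (right) at days 6, 9 and 13. Circled points are the 3 libraries that stood apart, each the highest of its group, and the 4 p53 RNAi libraries of day 13 lie between 2.66 and 2.75.

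Averaged over the 33 transcripts, the log2 level after p53 RNAi was 3.38 ± 0.11 at day 6, 3.14 ± 0.03 at day 9 and 2.70 ± 0.05 at day 13 (SD, n = 4 each). After zfp1 RNAi it was 3.61 ± 0.31, 3.42 ± 0.08 and 3.93 ± 0.31 (SD, n = 4 each), and in the control 3.59 ± 0.04, 3.55 ± 0.05 and 4.09 ± 0.37 (SD, n = 4, 4 and 3). The p53 libraries of day 9 spanned 3.1 to 3.17 and the controls 3.49 to 3.6. At day 6 the spans were 3.28 to 3.53 and 3.55 to 3.63, so that the groups did not overlap on either day. This mean describes a set chosen on its day 13 values.

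The 33 transcripts did not vary as 1 unit. Over the 528 pairs, the deviations from group means in 35 libraries, which share depth and scaling within each library, correlated with a median r of 0.17 and a range of -0.90 to 0.92. Grouped by these correlations, after the values were seen and with no test, they were divided into sets of 18 and 13 transcripts and a remaining pair. The number of sets was preset. The median r within the set of 18 was 0.46 and within the set of 13 it was 0.53, while between the 2 sets it was -0.02. A higher r within than between sets follows from grouping on these same correlations. The set of 18 includes SMED30003859, SMED30026045, SMED30011050 and SMED30029961. The closest pairs of all were SMED30003859 with SMED30026045 and SMED30029961 with SMED30011050 (r = 0.92 in each). The set of 13 includes SMED30017359, SMED30005188, SMED30018167 and SMED30016539. These and the pair's members are named after their values were seen. SMED30006247, of the pair, was at 0.924 RPKM in zfp1 RNAi day 6 replicate 1, where 22 of the 33 were the highest of their group, and between 6.15 and 8.80 RPKM in the group's other libraries.

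**Figure D5:**
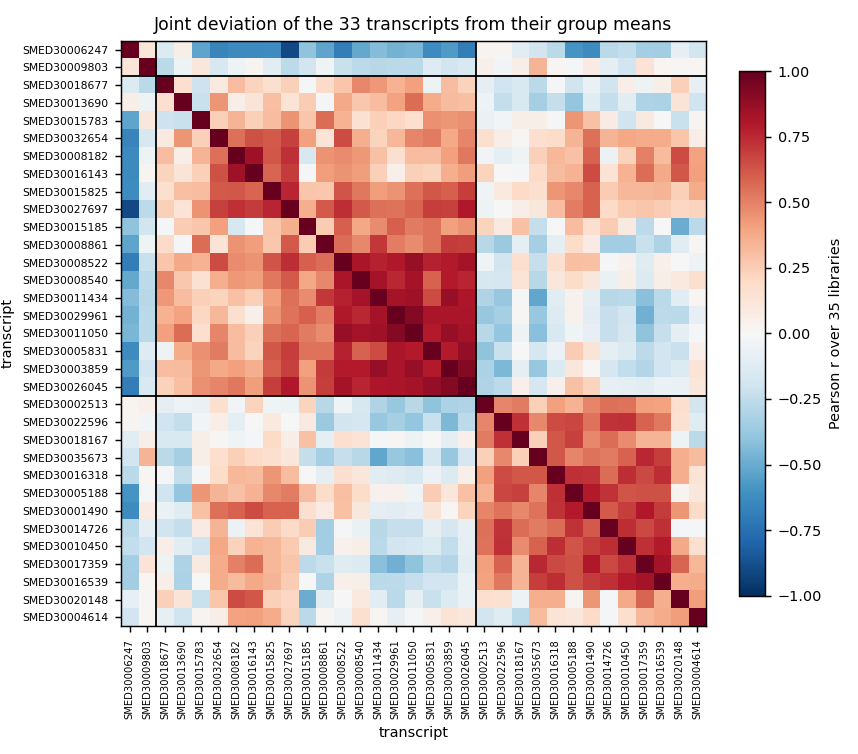
Pearson correlation, over 35 libraries, of the deviations of each pair of the 33 transcripts from their group means in log2(RPKM + 1); both axes list the transcripts in the same order. Black lines separate the remaining pair, the set of 18 and the set of 13, with median correlations of 0.46 and 0.53 within the larger sets and -0.02 between them. The sets were made from these same correlations, so this contrast follows from the grouping.

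The sets are described by day without a test of their difference. In the set of 13 the median difference from the control was 0.12 at day 6, -0.60 at day 9 and -1.29 at day 13, and 6 of 13 were below the control at day 6 and 13 of 13 at day 9. In the set of 18 it was -0.35 at day 6, -0.35 at day 9 and -1.18 at day 13, with 13 of 18 below the control at day 6 and 13 of 18 at day 9. In p53 RNAi day 9 replicate 4 the set of 18 was above its group mean by 0.42 and the set of 13 deviated by -0.61 (mean log2 deviation). Without that library the day 9 median was -0.56 in the set of 18 and -0.56 in the set of 13, with 16 of 18 and 12 of 13 below the control. The sets thus had the same day 9 median without 1 library.

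The sets also parted in zfp1 RNAi day 13 replicate 5, with a mean deviation of 0.98 in the set of 18 and -0.09 in the set of 13. Without it the zfp1 difference from the control at day 13 was -0.31 in the set of 18 in place of -0.16, and -0.27 in the set of 13 in place of -0.23. unc22 day 13 replicate 5 was above its group mean in both sets, by 0.40 and 0.52. Without it the p53 difference at day 13 was -1.09 in the set of 18 and -1.20 in the set of 13.

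Beside the 107 transcripts that were at -1 or lower after both knockdowns at day 13, the 33 were nearer to the control by median at every day. At day 13 the p53 median was -1.28 for the 33 and -1.73 for the 107. The p53 difference of the 33 had a median of -0.19 at day 6 and -0.48 at day 9, against -1.02 and -1.5 for the 107, and 1 of the 33 was at -1 or lower at day 9, against 82 of the 107. The zfp1 medians of the 33 were -0.01 and -0.12, against -1.10 and -1.28 for the 107. Without zfp1 RNAi day 6 replicate 1 the day 6 zfp1 median of the 33 was -0.20. Both groups of transcripts were chosen at day 13 and share their control libraries, and the difference between them was not tested.

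The 33 transcripts had recovered lengths of 319 to 2268 bases with a median of 666 bases, while the 11932 transcripts at the level floor had a median of 1309 bases and the 107 one of 904 bases. Their median level in the day 9 control was 7.80 RPKM, between 1.95 and 135 RPKM, beside 11.4 RPKM for the 11932. A shorter transcript collects fewer reads at the same RPKM.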

How the data were processed

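The authors deposited RPKM values for 25462 transcripts in 35 libraries. These are reads scaled to transcript length and to an adjusted library size, which was 0.617 to 1.207 of total reads. Bowtie, edgeR and CASAVA 1.8.2 appear in the submitters' processing notes without a stated use, and which transcript assembly was used is not given in the sources used here. From the RPKM, reads and transcript lengths were recovered with numpy 2.4.6, and all 25462 transcripts (100.0%) came out as whole reads within 0.01. Total reads ranged from 4391559 to 26115474, and counting error is wide for values of few reads. Replicates of each group differed by more than sampling noise (lowest chi-square per transcript 1.68).

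RPKM is not a count, so limma 3.58.1 in R 4.3.3 was fitted to log2(RPKM + 1) with an intensity trend and 1 mean per group, over the 19206 transcripts that reached 1 RPKM in 3 or more libraries, and checked on simulated data. Calls had a Benjamini-Hochberg adjusted p under 0.05, two-sided. Log2 fold changes carry limma's SE and understate changes of weak transcripts.

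The 33 transcripts, the rule for naming them and the tests were chosen with earlier results of these data known. Named were the 6 with the lowest p53 difference at day 13, up to 6 and 4 called lower without overlap at days 9 and 6, the 4 most abundant, the 2 highest at day 9, those called after zfp1 RNAi or in the interaction, and those beside each threshold. Marker lists could not be applied, since no identifier is paired with a gene name. Alternatives were other pseudocounts (0.1 and 5 RPKM), filters, scalings, fits, weights, replicate blocks, and leaving out libraries. Replicate numbers recur between groups. In the 7 comparisons checked, the deviations of same-numbered libraries from their group means correlated with r of -0.42 to 0.61. For zfp1 RNAi against the control at day 9, r was 0.03, 0.61, 0.28 and 0.34. The main fit did not treat the numbers as pairs, and a pairing is not excluded.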

Additional observations from a re-analysis of the deposited data

Results flagged for a closer look

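Within groups of 4 libraries, 128 sets of values of the 16 named transcripts were examined for a library far from the other 3 (gap to the nearest over the whole range above 0.829), which chance gives in about 1 of 20 groups, and 12 were found. 4 of them were in replicate 1 of zfp1 RNAi at day 6, 1 of the 3 libraries with many transcripts at 0. SMED30017359 measured 113 RPKM there (17.4 to 31.1 RPKM in the others), SMED30008182 at 275 RPKM against 78.4 to 111 RPKM, SMED30015185 at 16.6 RPKM against 9.77 to 10.8 RPKM and SMED30002513 at 3.05 RPKM against 1.95 to 2.14 RPKM. 2 were in zfp1 RNAi day 13 replicate 5, with SMED30003859 at 69.2 RPKM against 11.1 to 17.3 RPKM and SMED30029961 at 32.9 RPKM against 4.61 to 8.64 RPKM.

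The other 6 were in libraries that did not stand apart. In p53 RNAi day 13 replicate 4, SMED30008182 was at 113 RPKM against 70.3 to 74.6 RPKM and SMED30018677 at 5.28 RPKM against 2.25 to 2.75 RPKM. SMED30004614 was at 2.24 RPKM in p53 RNAi day 9 replicate 1 against 1.05 to 1.21 RPKM. SMED30018167 was at 4.59 RPKM in zfp1 RNAi day 6 replicate 4 against 7.98 to 8.40 RPKM, and at 9.19 RPKM in zfp1 RNAi day 9 replicate 1 against 7.64 to 7.71 RPKM. SMED30013690 was at 9.33 RPKM in unc22 day 6 replicate 4 against 6.19 to 6.67 RPKM.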

How the results depend on the processing

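The number of transcripts the selection finds moved from 33 to 77 with a pseudocount of 0.1 RPKM (28 shared) and to 8 with 5 RPKM (7 shared). It was 87 with group means (20 shared) and 29 with median-ratio scaling (28 shared). A p53 threshold of -1.5 gave 4, a zfp1 window of 0.2 gave 14 and a floor of 10 RPKM gave 20. With 1 day 13 library left out the number ranged over 29 to 55. The 9 calls named in the report held in 419 of 428 alternatives, with no change of sign. Most alternatives left out 1 library, and one outside the compared groups leaves the difference unchanged. The replicate block lost both calls of SMED30013690, both of SMED30015783 and that of SMED30018167 against zfp1 RNAi. Fits on the compared groups alone lost both calls of SMED30015783 and the same call of SMED30018167. For p53 RNAi against the control, a filter on a mean of 5 RPKM called 0 lower at day 6 and 3 at day 9. It tested 23 of the 33 and called 0.537% and 2.1% of all tested transcripts lower. Library quality weights gave 5 and 14 calls lower (2.34% and 8.59%) and 1 higher at day 9 (1547 of 19206 transcripts). Without the 3 libraries that stood apart, 2 and 11 were lower (1.04% and 5.03%). Fits on the compared groups alone gave 3 at day 6 (0.776%). With 1 library left out, calls lower ranged over 1 to 2 at day 6 (0.531% to 0.781%) and 5 to 8 at day 9 (1.44% to 2.86%). For zfp1 RNAi against the control at day 6, calls lower were 0 with the 5 RPKM filter (0.685%). In fits on the compared groups alone they were also 0 (0.208%). They were 3 with quality weights (1.58%, median log2 fold change -0.16) and 4 without the 3 libraries (1.74%, median -0.07). With 1 library left out they ranged over 1 to 2 (0.646% to 1.06%). At day 9 calls lower were 1 in fits on the compared groups alone (1.15%), without the day 13 libraries (1.07%) and in limma-voom (1.19%). They were 2 with quality weights (3.68%) and without the 3 libraries (1.65%), and 0 to 2 with 1 library left out (0.859% to 1.26%). For p53 against zfp1 RNAi at day 6, quality weights gave 2 lower (0.0989%) and a median of -0.06. Without the 3 libraries 1 was lower (0.104%), 1 higher (35 of 19206 transcripts) and the median -0.05. With 1 library left out the median ranged over -0.33 to -0.05. At day 9, 1 was lower in fits on these groups alone (0.0625%). Quality weights gave 12 lower and 2 higher. Of all tested transcripts they called 7.91% lower, against 0.104% with equal weights, and 1242 of 19206 higher. Without the 3 libraries 5 were lower (0.87%). With 1 library left out 1 to 2 were lower (0.0469% to 0.219%). The median was -0.23 with a pseudocount of 5 RPKM. The p53 effect at day 9 minus day 6 had 2 calls lower with quality weights (0.89% of all tested transcripts, against 0 with equal weights). Its median was -0.44 with a pseudocount of 0.1 RPKM and with limma-voom. Control day 9 against day 6 had 1 call higher with quality weights. The causes were not tested.

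With the replicate block, calls lower were 9 at day 6 (3.69% of all tested transcripts) and 3 at day 9 (0.885%) for p53 against control. They were 0 (0.0573%) and 2 (1.61%) for zfp1 against control, and 0 at day 9 (0.0104%) for p53 against zfp1. Same-numbered libraries correlated in some pairs and not in others, so the number neither establishes nor excludes a pairing.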
